A study of Mus musculus with 8 samples.

Results

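High mobility group (HMG) proteins are among the most abundant non-histone proteins of chromatin, and their mRNAs were followed here in undifferentiated P19 cells, a mouse embryonal carcinoma line of wild-type genotype, by nanopore direct RNA sequencing. The mRNAs were chosen by name. There were 9 of them (Hmga1, Hmga2, Hmgb1, Hmgb2, Hmgb3, Hmgn1, Hmgn2, Hmgn3 and Hmgn5) among 13120 mRNA genes with a read, and 8 of the 9 had at least 30 reads. Hmgn3, with 23 reads, was left out of the comparisons. All cultures were P19 cells of 1 line, and 4 groups of 2 replicates each were made, exposed to DMSO alone or to 10 µM MHY1485 (MHY), a compound used to activate the mTOR pathway, for 24 h or 48 h. Libraries carry the numbers given in the deposited table (21 and 23 at 24 h, 24 and 25 at 48 h), which name a library and do not count hours. The 4 libraries of 24 h were sequenced together in 3 runs and those of 48 h in 2 runs, so that time and run cannot be told apart.

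HMG proteins fall into 3 families that differ in how they bind chromatin. HMGA proteins bind the minor groove of AT-rich DNA through short AT-hook motifs, HMGB proteins bend DNA with a pair of HMG boxes, and HMGN proteins bind nucleosomes and compete with linker histone H1. Most are high in embryonic and proliferating cells, and Hmga2 in particular is known as an embryonic gene. A poly(A) tail is added to an mRNA in the nucleus and shortens in the cytoplasm, so that the tail length of a steady-state mRNA is a mixture of new and old molecules.

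The members took 7437 of 1926118 mRNA reads, or 0.336% to 0.421% of the reads of a library. Libraries held 178369 to 316546 mRNA reads. Each direct RNA read comes from 1 molecule, so read levels are given as RPM (reads of a gene scaled to a common total of mRNA reads, not divided by transcript length). Of the 14 markers of undifferentiated P19 cells, 12 had at least 10 reads, and the sum of the list was 3756 to 4114 RPM at 24 h and 3556 to 3998 at 48 h. Zfp42, one of these markers, had no read. Of 9 neuronal markers 2 had at least 10 reads, Neurog1 and Dcx had none, and the sum of the list was 293 to 337 RPM with DMSO and 276 to 404 with MHY at 24 h, and 287 to 328 with DMSO and 215 to 247 with MHY at 48 h, where the groups do not overlap. Of 7 endoderm or mesoderm markers 2 had at least 10 reads (T and Eomes), and Sox17 and Afp had none. The sum of this list was 68.0 to 112 RPM with DMSO and 28.0 to 57.8 with MHY at 24 h, where the groups do not overlap. Taken singly, 34.7% of all genes did not overlap at 24 h (read counts divided by size factors). At 48 h the sum was 108 to 316 with DMSO and 80.2 to 276 with MHY. With MHY at 48 h, 1 of 7 undifferentiated markers and 1 of 2 endoderm or mesoderm markers that could be tested fell (limma adjusted p under 0.05). Of all genes tested, 1.31% fell there. The endoderm or mesoderm marker was T, which ran from 16.8 to 231 RPM over the libraries. At 24 h none of the markers fell. Their part in the results on MHY was not tested.

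The 3′ ends of the reads show which form of each mRNA the tails belong to. They are given first, because the position where cleavage and polyadenylation take place decides the last bases before the tail. A read's last aligned base was placed on the genome (assembly mm10) and ends within 25 bases of a common position were counted together, for positions with at least 5% of a gene's reads. The 30 bases up to that position are printed 5′ to 3′ on the mRNA strand, from GENCODE vM21 transcripts, with the poly(A) signal in capitals where one was found. The search went through 11 hexamers in a fixed order on the mRNA strand only, stopped at the first one found, and paid no heed to overlaps with later ones. Across the 5775 genes with at least 30 reads for which the same window could be read, 91.4% held one of the 11. The canonical hexamer AATAAA was found in 66.1% of these genes. The next in order, ATTAAA, was the first found in 14.8%. AGTAAA was so in 2.87% of genes and TATAAA in 2.53%. The share was 1.07% for CATAAA and 0.814% for GATAAA. It was 0.952% for AATATA and 1.02% for AATACA. It was 0.329% for AATAGA and 0.416% for ACTAAA. The last, AATGAA, came to 0.45%.
Hmgn2, distal end: aagaatctttAATAAAgctggttacagtta
Hmgn2, proximal end: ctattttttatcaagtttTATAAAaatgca
Hmgb1, main end: aatgcttctaAGTAAAtacaatttttttta
Hmgb1, distal end: tAATAAActaataattacagaggttttaaa
Hmgb1, proximal end: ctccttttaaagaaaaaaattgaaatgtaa
Hmgb2, main end: ttaaatttgtAATAAAataatgtatattaa
Hmgn1, main end: tcgaccAATAAAatctgttgtgaaagagta
Hmga1, main end: agttacttgAATAAAaaacaaatagccttt

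Hmgn2 reads ended at 2 places in the 3′ UTR. The distal window lies at chr4:133964748-133964777 on the minus strand, 790 bases after the stop codon, and took 86.9% of the gene's reads. The proximal window, at chr4:133965454-133965483, lies 84 bases after the stop codon and took 11.98%. Hmgb1 reads ended at 3 places, on the minus strand of chromosome 5. The main end, at chr5:149048231-149048260 and 506 bases after the stop codon, took 80.1% of reads, the distal end (chr5:149047227-149047256, 1510 bases) 9.67% and the proximal end (chr5:149048643-149048672, 94 bases) 8.23%. The hexamers of the list are not in the proximal window of Hmgb1. Hmgb2 had a single end with 97.4% of its reads, at chr8:57514460-57514489 on the plus strand and 362 bases after the stop codon, well inside an annotated transcript of 2628 bases. Hmgn1 likewise had a single end with 97.3% of reads at chr16:96121588-96121617 on the minus strand, 788 bases after the stop codon, in a transcript of 2174 bases. For Hmga1 the end at chr17:27563634-27563663 on the plus strand, 1172 bases after the stop codon, took 95.2% of reads. Reads of Hmga1b, a copy of Hmga1 without introns on chromosome 11 that is not a member, ended at the same 30 bases, which in its transcript are followed by a stretch that holds an encoded run of A. Without that stretch, the last 1200 bases of the transcript match the Hmga1 mRNA at 99.2% of positions. Of the Hmga1 alignments 13.4% had a mapping quality of at least 10, so that reads of Hmga1 and Hmga1b cannot be assigned with confidence, and the values of Hmga1 below are those of the alignments as deposited. The same share was 29.0% for Hmgb1, 32.4% for Hmga2, 42.5% for Hmgb3 and 64.4% for Hmgn2, below the 71.5% of all mRNA reads. It was at least 99.6% for Hmgb2, Hmgn1 and Hmgn5. With only these alignments Hmgb1 still exceeded Hmgn1 in tail length, by 17.3 nt (exact adjusted p = 0.0312). Hmgb3 and Hmgn5, on chromosome X, ended at 1 place each, with 98.3% of the Hmgb3 reads and 98 of the 100 Hmgn5 reads.

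Hmgn1, a nucleosome-binding protein, had the highest read level of the members. Its level with DMSO was 874 and 975 RPM at 24 h (replicates 21 and 23) and 1034 and 904 at 48 h (replicates 24 and 25), and with MHY 960 and 830 at 24 h and 1021 and 995 at 48 h. The groups overlap at both times. Its close relative Hmgn2 had 743 and 805 RPM with DMSO and 653 and 600 with MHY at 24 h, and 856 and 682 with DMSO and 754 and 701 with MHY at 48 h. Both MHY libraries of 24 h lie below both DMSO libraries, and on this scale those of 48 h overlap. Hmgn5, the X-linked HMGN gene, had 39.2 to 73.3 RPM, from 7 to 19 reads in a library, and Hmgn3 had 1 to 7 reads in a library.

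The HMGB mRNAs encode DNA-bending proteins, of which Hmgb1 is also known as an alarmin once outside the cell and Hmgb2 as a protein of proliferating cells. Hmgb1 had 612 and 551 RPM with DMSO and 618 and 572 with MHY at 24 h, and 613 and 714 with DMSO and 523 and 696 with MHY at 48 h, with overlap at both times. Hmgb2 had 665 and 783 with DMSO and 676 and 572 with MHY at 24 h, and 674 and 651 with DMSO and 748 and 724 with MHY at 48 h. Hmgb2 was thus higher in both MHY libraries than in both DMSO libraries at 48 h. Hmgb3 was lower than both, at 67.4 to 136 RPM.

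Of the HMGA mRNAs, Hmga1 had 785 and 602 RPM with DMSO and 787 and 662 with MHY at 24 h, and 842 and 644 with DMSO and 626 and 719 with MHY at 48 h. The replicates of a group differed by more than the group means did. Alignments to the copy Hmga1b came to 752 to 1062 RPM. Hmga2 was rare, with 0 to 10 reads in a library and 37 in all. Its 0 reads in MHY replicate 23 at 24 h allow a level of up to 16.8 RPM. Summed over the 9 mRNAs, the level was 3869 ± 8.62 RPM (SD, n = 2) with DMSO and 3602 ± 344 with MHY at 24 h, and 4026 ± 256 and 3924 ± 184 at 48 h.

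**Figure D1:**
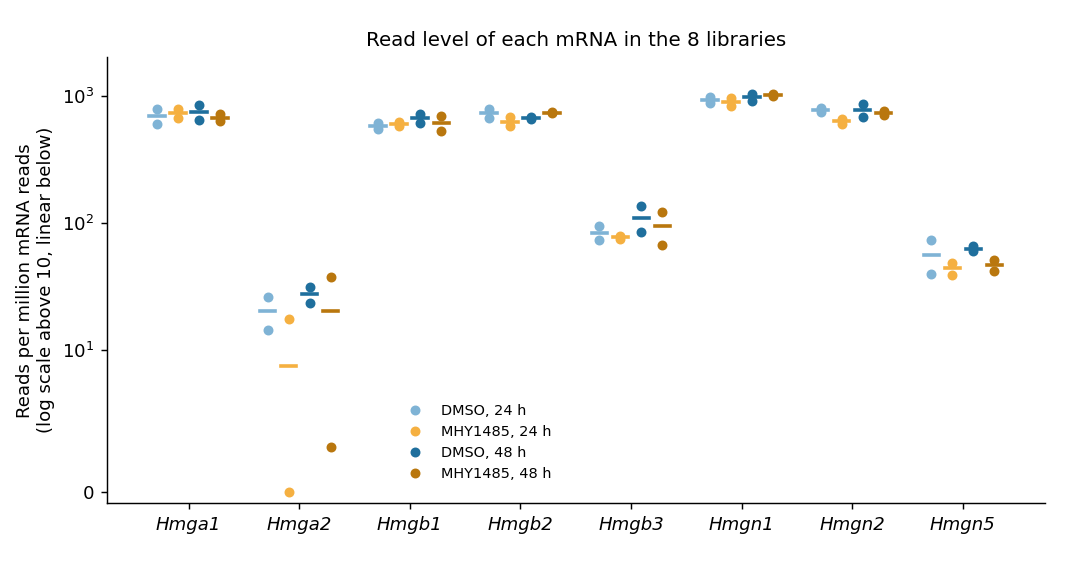
RPM (y axis, logarithmic above 10 and linear below) of the 8 HMG mRNAs with at least 30 reads, with a point for each library and a short line at the mean of the 2 libraries of a group. Hmga1, Hmgb1, Hmgb2, Hmgn1 and Hmgn2 lie between 523 and 1034 in every library, Hmgb3 and Hmgn5 between 39.2 and 136, and Hmga2 reaches 37.4.

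Read counts were compared with limma voom, fitted over 4116 genes, which tested 7 members (Hmga2 had too few reads). No member was called at 24 h at a Benjamini-Hochberg adjusted p under 0.05, and 0.0486% of all genes were. Hmgn2 alone had an unadjusted p under 0.05, with a log2 change of -0.34 ± 0.16 (SE, limma adjusted p = 0.958). Hmgb2 was next, at -0.25 ± 0.16 (limma adjusted p = 0.958). The fitted change was below 0 for 5 of the 7 members, with a median of -0.17 over the members and -0.02 over all genes tested. The libraries of the groups did not overlap for 2 members, both lower with MHY (Hmgb2 and Hmgn2), on counts divided by size factors, against 34.7% of all genes in either direction (15.7% higher and 18.9% lower).

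At 48 h no member was called either (lowest limma adjusted p = 0.503, with 0 members at an unadjusted p under 0.05), beside 1.72% of all genes (71, of which 17 higher and 54 or 1.31% lower). With library totals as the scaling, the 60 calls split into 32 higher and 28 lower, and the median of all genes moved from -0.02 to 0.10. The 2 members with the lowest p were Hmgb1, at -0.27 ± 0.16 (SE, log2, adjusted p = 0.503), and Hmgb3, at -0.48 ± 0.29 (adjusted p = 0.521, from 18 to 43 reads in a library). Without MHY replicate 24 the change of Hmgb1 was -0.00014 and that of Hmgb3 0.064, and without DMSO replicate 25 that of Hmgb1 was -0.12. The change was below 0 for 6 of 7 members, with a median of -0.24, which was -0.12 with library totals, -0.079 without DMSO replicate 24, -0.12 without DMSO replicate 25, -0.014 without MHY replicate 24 and -0.37 without MHY replicate 25. On counts divided by size factors, libraries of the groups did not overlap for 3 members, against 39.8% of all genes. Hmgn2 and Hmgn5 were lower in both MHY libraries (21.3% of all genes in that direction) and Hmgb2 was higher in both (18.6%). Standard errors ran from 0.14 for Hmgn1 to 0.39 for Hmgn5 at 48 h, and were widest for the members with few reads. In bulk RNA, fewer cells with an mRNA and less of it per cell cannot be told apart.

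**Figure D2:**
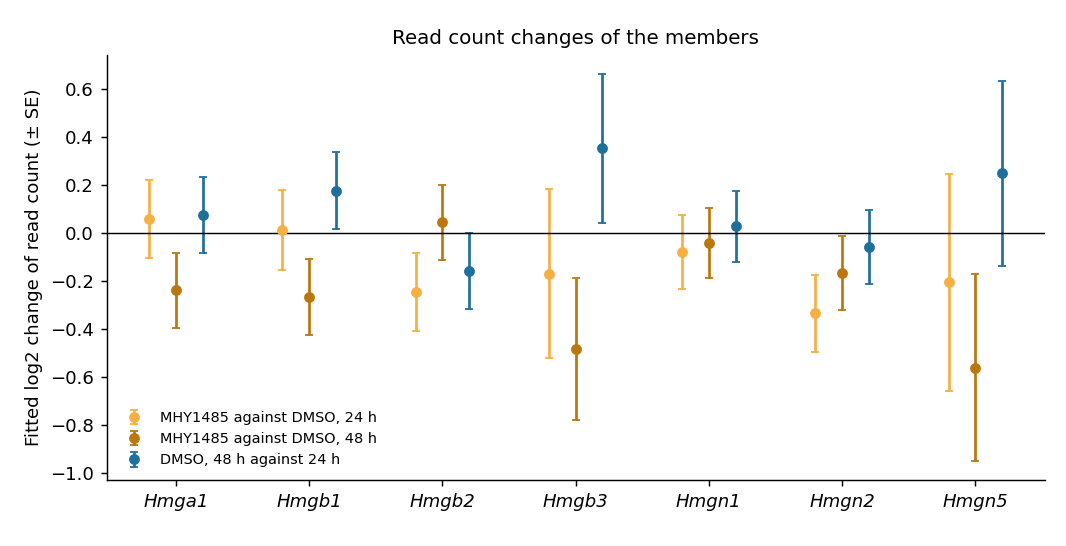
Fitted log2 changes of read counts with their SE (y axis) for the 7 HMG mRNAs tested, for MHY against DMSO at 24 h, at 48 h, and for DMSO at 48 h against 24 h. The values lie between -0.56 (Hmgn5, MHY at 48 h) and 0.35 (Hmgb3, DMSO 48 h against 24 h), and no value passed the adjusted threshold.

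Between the DMSO libraries of 48 h and 24 h, which differ in time and in run, no member was called by limma, nor was any gene (0.0%, with 175 genes at an unadjusted p under 0.05). Hmgb3 had 0.35 ± 0.31 (SE, log2, adjusted p = 0.999) and Hmgb1 0.18 ± 0.16 (adjusted p = 0.999). On counts divided by size factors, Hmgb2 was lower in both DMSO libraries of 48 h (16.5% of all genes in that direction), and the other 6 overlapped. On the RPM scale Hmgb2 overlapped too. The difference of the MHY changes, 48 h minus 24 h, was called for no member and for 0.34% of all genes. Its lowest p among the members belonged to Hmga1, at -0.30 ± 0.22 (adjusted p = 0.883), and Hmgb2, at 0.29 ± 0.23 (adjusted p = 0.883).

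The other genes of chromatin were read from lists. Of 23 histone chaperones and abundant chromatin proteins, all tested, 2 fell and none rose with MHY at 48 h, beside 1.31% and 0.413% of all genes. Npm1, the nucleolar chaperone nucleophosmin, had 5775 and 6214 RPM with DMSO and 4904 and 5320 with MHY, a log2 change of -0.36 ± 0.09 (limma adjusted p = 0.0123). Ptma, the acidic protein prothymosin alpha that binds histone H1, had 3636 and 3731 with DMSO and 2863 and 3410 with MHY, a change of -0.37 ± 0.11 (limma adjusted p = 0.0356). Of 15 alternatives Npm1 kept its call in 11, losing it without DMSO replicate 25 (-0.27, limma adjusted p = 0.499), MHY replicate 24 (-0.24, 0.633) or DMSO replicate 23 of 24 h (-0.35, 0.0621), and at a barcode confidence of at least 0.9 (0.0914). Ptma kept its call in 6 of 15, and of the libraries left out in turn only MHY replicate 25 of 48 h left it called (-0.51, limma adjusted p = 0.00035), while the others gave 0.0622 (without MHY replicate 23 of 24 h) to 0.82 (-0.18, without MHY replicate 24 of 48 h). With library totals as the scaling Ptma had -0.26 (limma adjusted p = 0.105). At 24 h none of the 23 was called (3 at an unadjusted p under 0.05, limma). Of 21 other genes with an HMG box 13 were tested, and of 7 linker histones only H1f0 had reads. Most histone mRNAs end in a stem-loop without a tail. None of these was called in any comparison of read counts (limma, with 1 of 13 at an unadjusted p under 0.05 for MHY at 48 h, and H1f0 also below 0.05 there).

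Tail lengths split the members into longer and shorter ones. At 24 h the median tail of Hmgn2 was 126 and 122 nt with DMSO (replicates 21 and 23) and 115 and 117 nt with MHY. At 48 h it was 114 and 113 nt with DMSO (replicates 24 and 25) and 111 and 117 nt with MHY. Hmgb1 had 115 and 111 nt with DMSO and 111 and 128 nt with MHY at 24 h, and 119 and 115 nt with DMSO and 109 and 115 nt with MHY at 48 h. Hmgb2 had 117 and 114 nt with DMSO and 119 and 115 nt with MHY at 24 h, and 104 and 114 nt with DMSO and 107 and 127 nt with MHY at 48 h. These 3 mRNAs lie close together. In every library they lie above the median over the 1949 genes with at least 10 reads in each library, 93.7 to 104 nt.

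The tails of Hmgn1 and Hmga1 were shorter. Hmgn1 had median tails of 109 and 95.3 nt with DMSO and 85.4 and 99.7 nt with MHY at 24 h, and 97.5 nt in both DMSO libraries and 96.5 and 103 nt with MHY at 48 h. Hmga1 had 102 and 94.0 nt with DMSO and 101 and 117 nt with MHY at 24 h, and 91.6 and 96.2 nt with DMSO and 97.2 and 98.6 nt with MHY at 48 h. MHY replicate 23 of 24 h was the highest library of both Hmga1 and Hmgb1. Hmgb3 fell between, from 85.0 to 123 nt on 14 to 43 reads in a library. Hmgn5 had 93.4 to 148 nt on 7 to 19 reads. The 37 reads of Hmga2 had a median of 138 nt, longer than the medians of 97.0% of the 5842 genes with at least 30 reads. Its medians in single libraries ran from 82.2 to 184 nt, and 32.4% of its alignments had a mapping quality of at least 10.

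**Figure D3:**
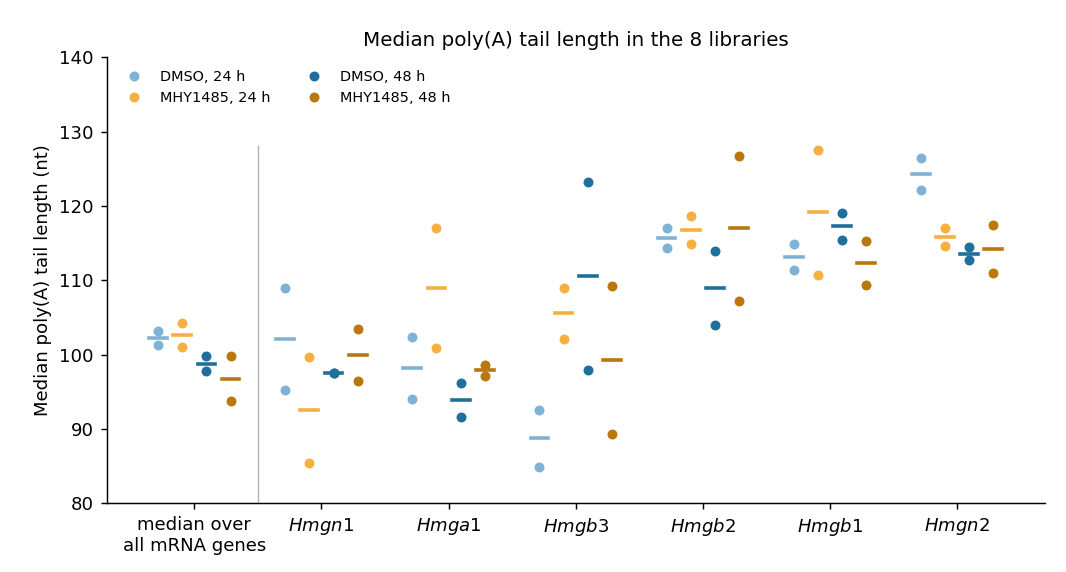
Median poly(A) tail length in nt (y axis, starting at 80) of 6 HMG mRNAs with at least 10 reads in every library, beside the median over 1949 mRNA genes, with a point for each library and a line at the mean of a group. Hmgb2, Hmgb1 and Hmgn2 lie between 104 and 128 nt and Hmgn1 between 85.4 and 109 nt.

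The members were compared pair by pair within libraries, by an exact two-sided test that flips the sign of the difference in each of the 8 libraries, over 15 pairs of the 6 mRNAs with at least 10 reads in every library. The smallest p it can give is 0.00781. In 6 pairs the adjusted p was under 0.05, and these were the 6 pairs that set Hmgb1, Hmgb2 or Hmgn2 against Hmga1 or Hmgn1. Hmgn2 exceeded Hmgn1 in 8 of 8 libraries, and Hmgn1 minus Hmgn2 was -18.9 ± 5.79 nt (SD over libraries, n = 8, exact p = 0.00781, adjusted p = 0.0234). Hmgb1 exceeded Hmgn1 by 17.4 ± 7.29 nt and Hmgb2 exceeded it by 16.6 ± 8.74 nt, each in 8 of 8 libraries (exact adjusted p = 0.0234 for both). Hmga1 minus Hmgb1 was -15.7 ± 5.82 nt and Hmga1 minus Hmgn2 was -17.2 ± 8.60 nt, below 0 in 8 of 8 libraries each (exact adjusted p = 0.0234 for both). Hmga1 minus Hmgb2 was -14.9 ± 8.79 nt, above 0 in 1 library (exact p = 0.0156, adjusted p = 0.0391), and this pair lost its call without any one library except MHY replicate 23 of 24 h (exact adjusted p from 0.0521 to 0.0781).

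All 6 of these differences kept their sign in each of the 5 sequencing runs, which divide the reads of the same libraries and are not replicates. In all, 9 of the 15 pairs did, among them the pairs of Hmgb3 with Hmgb1, Hmgb2 and Hmgn2. Hmgb1 exceeded Hmgb3 by 14.4 ± 11.3 nt and Hmgb2 exceeded it by 13.6 ± 12.2 nt, and Hmgb3 minus Hmgn2 was -15.9 ± 15.3 nt, with Hmgb3 the shorter in 7 of 8 libraries each time. These 3 pairs missed the threshold (exact adjusted p from 0.0502 to 0.0521). On mean instead of median tails, Hmgb2 minus Hmgb3 and Hmgb3 minus Hmgn2 passed it (exact adjusted p = 0.0439 for both), and without DMSO replicate 25 of 48 h all 3 did (exact adjusted p = 0.0293). The mean differences of the other 6 pairs were 0.871 to 3.01 nt in size (lowest exact adjusted p = 0.551). The 2 abundant HMGN mRNAs stood apart from each other, while Hmgb1 and Hmgb2 differed by 0.871 ± 9.18 nt.

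The members were also set against the median, in the same library, over the 1949 mRNA genes with at least 10 reads in every library. These more abundant genes stand for all genes in this comparison. Hmgn2 was longer by 16.8 ± 4.05 nt (SD, n = 8), Hmgb1 by 15.4 ± 5.14 nt and Hmgb2 by 14.5 ± 6.08 nt. Each was so in 8 of 8 libraries (exact sign-flip p = 0.00781, adjusted p over 1949 genes = 0.033). Without any one library the 3 calls were lost (exact adjusted p from 0.0594 to 0.0632), since 7 libraries allow no p below 0.0156. Of the 1949 genes, 11.5% were longer in all 8 libraries and 23.7% lay on 1 side in all 8. These shares include genes with as few as 10 reads in a library, while Hmgb1, Hmgb2 and Hmgn2 had 102 to 235. Lying on 1 side in all 8 depends on the number of reads, so these shares are not a like background for the 3. The share among genes with like read numbers was not tested. Hmgn1 differed from the same median by -2.08 ± 7.35 nt, Hmga1 by -0.388 ± 6.68 nt and Hmgb3 by 0.927 ± 12.4 nt (exact adjusted p from 0.598 to 0.897).

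**Figure D4:**
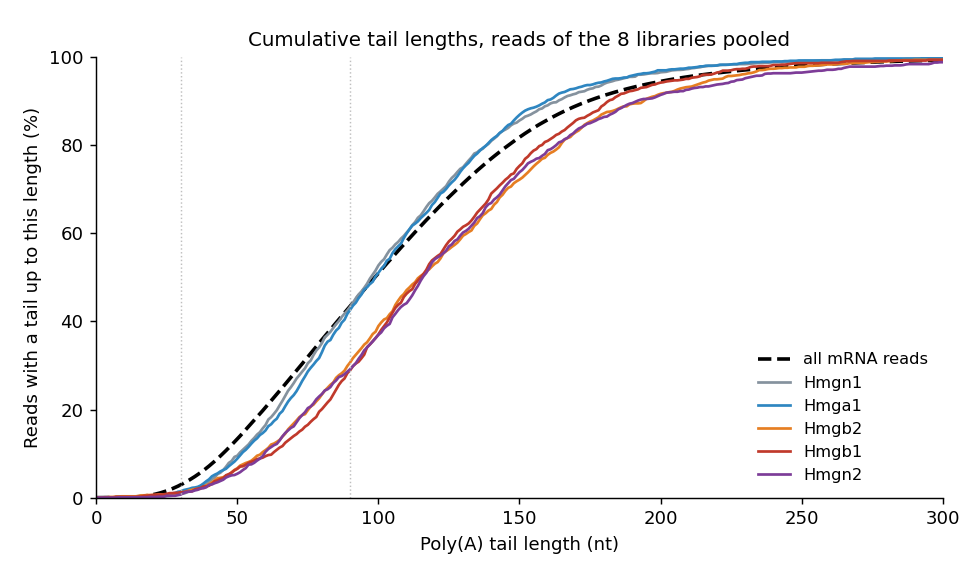
Cumulative share of reads (y axis, in percent) up to each poly(A) tail length (x axis, in nt) for 5 HMG mRNAs and for all mRNA reads, over the 8 libraries pooled, with dotted lines at 30 and 90 nt. The curves of Hmgb1, Hmgb2 and Hmgn2 run to the right of those of Hmga1 and Hmgn1, with 27.7% to 29.6% of reads between 30 and 90 nt against 41.2% and 42.5%.

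The same split showed in the tail classes. Tails of 30 to 90 nt (∼60-nt) made up 42.5% of Hmgn1 reads (Wilson 95% interval 40.2% to 44.8%) and 41.2% of Hmga1 reads (38.6% to 43.9%), beside 40.6% of all mRNA reads. They made up 27.7% of Hmgb1 reads (25.2% to 30.3%), 28.5% of Hmgn2 reads (26.2% to 30.9%) and 29.6% of Hmgb2 reads (27.2% to 32.1%). Tails shorter than 30 nt (<30-nt) ranged from 0.713% of reads for Hmgn2 to 3.91% for Hmgb3 (1.91% to 7.85%, 7 of 179 reads) among the 6 members that had any, beside 2.92% of all mRNA reads. Of the 7 Hmgb3 reads 4 came from MHY replicate 24 of 48 h (4 of 21 reads), and without that library, left out after seeing the data, the share was 1.90% (3 of 158). None of the 100 reads of Hmgn5 was in this class, which allows a share of up to 3.0% if a count of 0 is bounded by 3 counts, and none of the 37 reads of Hmga2, which allows up to 8.11% by the same rule (Wilson upper limits 3.70% and 9.41%). These intervals cover counting error only.

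To compare the tail classes between MHY and DMSO, log2 odds of each share were fitted by limma over 1949 genes. No member was called for the ∼60-nt share at 24 h, nor was any gene (0.0%, with 95 genes and 0 members at an unadjusted p under 0.05), and at 48 h no member was called beside 0.257% of all genes. At 24 h Hmga1 had -0.37 ± 0.26 (SE, log2 odds) and Hmgn1 had 0.35 ± 0.24 (limma adjusted p = 0.988 for both). Without MHY replicate 21 or 23 Hmga1 had -0.74 or -0.12. With 1 library left out in turn, Hmgn1 ran from -0.19 to 0.71. At 48 h Hmgn2 had 0.21 ± 0.23 and Hmgb2 -0.15 ± 0.24 (limma adjusted p = 0.974 for both). With 1 library left out in turn these ran from -0.034 to 0.38 and from -0.54 to 0.11. The libraries of the groups did not overlap for 1 member at 24 h (Hmgb3, lower with MHY, against 14.1% of all genes) and for none at 48 h (32.8% of all genes in either direction). The members' median change was -0.12 at 24 h and -0.02 at 48 h, and 0.05 over all genes at both times. The members' median was 0.12 at 24 h at a mapping quality of at least 10 and -0.44 without MHY replicate 21, and at 48 h it was 0.12 without MHY replicate 25 and -0.12 without DMSO replicate 25.

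For the <30-nt share no member was called at 24 h, nor was any gene (0.0%, 110 genes at an unadjusted p under 0.05, limma). Hmgb1 alone among the members had an unadjusted p under 0.05, at -1.77 ± 0.66 (SE, log2 odds, limma adjusted p = 0.775). This rests on 3 of 269 reads with DMSO and 0 of 241 with MHY, which allows a share of up to 1.24%, and with only alignments of mapping quality of at least 10 the value was 0.13. Hmgb2 had -0.65 ± 0.95 (limma adjusted p = 0.996). Both were lower in both MHY libraries, where 22.0% of all genes did not overlap (7.8% higher and 14.2% lower). At 48 h no member was called beside 0.359% of all genes, with Hmgb3 at 1.80 ± 0.93 (limma adjusted p = 0.567, and 0.85 without MHY replicate 24 or 2.98 without MHY replicate 25) and Hmgn2 at -0.66 ± 0.65 (limma adjusted p = 0.791). Hmga1 and Hmgb3 were higher in both MHY libraries (33.1% of all genes did not overlap, 26.1% higher and 7.03% lower). The members' median was -0.42 at 24 h and 0.31 at 48 h, and that of all genes -0.07 and 0.41. The sign of the members' median was not stable. At 48 h it was -0.047 where 30 reads a library were required, -0.083 at a barcode confidence of at least 0.9, -0.49 at a mapping quality of at least 10 and -0.20 without DMSO replicate 24, and at 24 h it was 0.086 at that barcode confidence and 0.043 without MHY replicate 21.

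The difference between the MHY changes of 24 h and 48 h was called for no member in either class, and for no gene (limma, 0.0% for both), although up to 6 genes were called for the <30-nt share under other settings. For the <30-nt share, 166 genes and 0 members had an unadjusted p under 0.05, and the lowest among the members were Hmgb1, at 1.72 ± 0.88 (limma adjusted p = 0.658), and Hmgb3, at 2.45 ± 1.48 (limma adjusted p = 0.737). For the ∼60-nt share, 69 genes and 0 members had one, and the lowest were Hmgn1, at -0.44 ± 0.32, and Hmgn2, at 0.40 ± 0.34 (limma adjusted p = 0.994 for both).

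Tails also differed between the 3′ ends of 1 gene, a comparison looked at after the ends were known and given without a test. The Hmgn2 reads with the distal end printed above, 790 bases from the stop codon, had a median tail of 119 nt over the libraries pooled, and those with the proximal end, 84 bases from it, 88.7 nt. In single libraries the distal form had 129 and 123 nt with DMSO and 121 and 119 nt with MHY at 24 h, and 117 and 115 nt with DMSO and 113 and 119 nt with MHY at 48 h. The proximal form had 88.1 and 103 nt with DMSO and 93.5 and 80.2 nt with MHY at 24 h, and 96.7 and 94.8 nt with DMSO and 83.1 and 77.2 nt with MHY at 48 h, on 9 to 32 reads in a library. The distal form was longer in 8 of 8 libraries, by 30.03 ± 9.42 nt (SD, n = 8), and the lowest distal value lay above the highest proximal one.

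The proximal form of Hmgn2 made up 11.7% ± 1.32 of its reads with DMSO and 10.3% ± 2.71 with MHY at 24 h (SD, n = 2), and 13.1% ± 2.36 and 12.6% ± 3.92 at 48 h. Of the 20 bases that follow its end in the annotated transcript, 3 are A, with no run of more than 2. For Hmgb1 the main end had a pooled median of 116 nt, the distal end 113 nt and the proximal end 98.3 nt. The proximal form of Hmgb1 was shorter than the main form in 6 of 8 libraries, by 13.3 ± 22.4 nt, on 7 to 18 reads in a library. The difference between the forms of Hmgb1 was thus within the spread of the libraries. Hmgb1 and Hmgn2 kept long tails at their main ends alone, at 111 to 131 nt and 113 to 129 nt in the libraries, against 84.7 to 110 nt for the main end of Hmgn1.

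**Figure D5:**
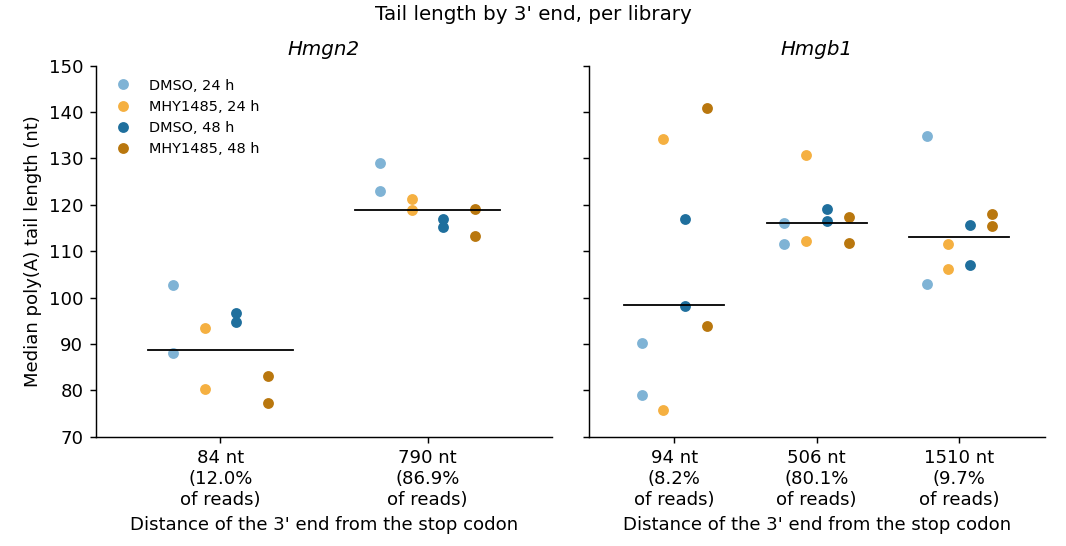
Median poly(A) tail length in nt (y axis, starting at 70) of Hmgn2 and Hmgb1 reads by the distance of their 3′ end from the stop codon, with a point for each library and a black line at the median of the pooled reads. The 2 ends of Hmgn2 do not overlap (77.2 to 103 nt and 113 to 129 nt), and the 3 ends of Hmgb1 do.

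Other genes of chromatin gave the range in which these tails lie. Of the genes with an HMG box outside the HMGB family, 14 had at least 30 reads, with median tails of 99.4 to 138 nt and a median of 118 nt over the genes. The 23 chaperones and abundant chromatin proteins had median tails of 73.8 to 131 nt, with a median of 107 nt. The abundant Npm1 (89.9 nt) and Ncl (91.6 nt) lay at the short end of that list, with Asf1a at 73.8 nt. H1f0 had a median of 113 nt. Hmgb1, Hmgb2 and Hmgn2, with pooled medians of 115, 114 and 116 nt, were longer than 72.5% to 75.2% of genes with at least 30 reads. Hmgn1 (97.4 nt) and Hmga1 (98.9 nt) were longer than 28.5% and 33.1%. The median over the pooled medians of all genes with at least 30 reads was 105 nt.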

How the data were processed

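The deposited table lists alignments of nanopore direct RNA reads from 8 libraries. Upstream, the authors used Guppy for base calling, minimap2 (2.20, in the submitters' processing notes) for alignment to mm10 transcripts, Nanopolish for tails and Deeplexicon to assign barcodes. Tail length was deposited in nt without normalization, mapping quality as a score and barcode confidence as a fraction.

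Of 2439710 alignments, 2027638 had the tag PASS (83.1%), and 1926118 remained on mRNA without pseudogenes and mitochondrial transcripts, 1 row for each read and transcript. The members and gene lists were chosen with earlier results of these data known. Members with at least 30 reads are described in every library. A fitted change is given for members with an unadjusted p under 0.05 in a comparison, or for the 2 with the lowest p, and chromatin genes are named where called (at most 4 for a list and comparison). Read counts (genes with at least 10 reads in 2 libraries, median-of-ratios size factors) were fitted with limma voom and tail shares (0.5 reads added, at least 10 reads in each library, weighted by reads) with limma 3.58.1 in R 4.3.3, all 8 libraries in 1 fit, with Benjamini-Hochberg adjustment over all genes. Median tails were compared by exact sign-flip tests over libraries (numpy 2.4.6). The fits were tested on simulated data. With 2 libraries a group, an exact permutation test of groups cannot reach p = 0.05. The study's methods call the replicates biological replicates.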

Additional observations from a re-analysis of the deposited data

Results flagged for a closer look

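For Hmgb2 read counts the order of the MHY and DMSO libraries differed between the times. On counts divided by size factors, MHY gave 2 values lower than either DMSO value at 24 h (18.9% of all genes) and 2 higher than either at 48 h (18.6%). On the RPM scale the groups of 24 h overlapped. The fitted changes were -0.25 ± 0.16 and 0.04 ± 0.16 (SE, log2), and neither was called. The difference of the fitted changes, 48 h minus 24 h, was 0.29 ± 0.23 (SE, log2, limma adjusted p = 0.883), and that of every other member also missed the threshold.

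Alignments outside the tag PASS, which no comparison used, came to 1336 of the 8773 alignments of the members. PASS alignments made up 84.8% of the total, and 83.8% to 86.5% in single libraries. They held 138 alignments of Hmgb2 with the tag NOREGION, given where Nanopolish found no tail region in the signal. That was 8.36% of Hmgb2 alignments, against 5.04% for Hmgn5 (6 of 119), 3.22% for Hmgb1, 1.36% for Hmgb3, 0.829% for Hmga1, 0.733% for Hmgn2, 0.288% for Hmgn1 and 0 of 41 for Hmga2, and a median of 0.314% over 6435 genes with at least 30 alignments, of which 57 had a higher share. For Hmgb2 the share was 7.79% and 7.58% with DMSO and 8.29% and 10.2% with MHY at 24 h, and 4.42% and 4.08% with DMSO and 12.97% and 10.7% with MHY at 48 h. For all mRNA alignments at 48 h it was 0.469% and 0.733% with DMSO and 0.777% and 0.806% with MHY. The part of this in the Hmgb2 tail lengths was not tested.

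Hmga1b, the copy of Hmga1, held 1677 reads, more than the 1344 of Hmga1. Its median tails were 89.8 to 103 nt in the libraries, beside 91.6 to 117 nt for Hmga1.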

How the results depend on the processing

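No HMG mRNA was called in any comparison of MHY with DMSO, or of the times, under any alternative. Of the 6 pairs of mRNAs that differed in tail length, 5 were called under every alternative in which both mRNAs had enough reads. Hmga1 minus Hmgb2 lost its call without any one library except MHY replicate 23 of 24 h (exact adjusted p from 0.0521 to 0.0781). At a mapping quality of at least 10, Hmga1 and Hmgb3 had too few reads in some library, and 3 of 6 pairs were called. Leaving out 1 library gave 5 to 8 called pairs. Without MHY replicate 23 of 24 h Hmgn5 also had enough reads, so that more pairs were compared there and the counts are not over the same pairs. The comparison with all genes lost its 3 calls without any one library, since 7 libraries allow no p below 0.0156 (exact adjusted p from 0.0594 to 0.0632).

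Counts over all genes moved as follows. With a barcode confidence of at least 0.9 the calls in read counts fell from 71 to 44 for MHY at 48 h and from 14 to 7 for the difference of the times, those in the ∼60-nt share went from 0 to 1 at 24 h and from 5 to 3 at 48 h, and those in the <30-nt share from 7 to 2 at 48 h and from 0 to 2 for the difference. At a mapping quality of at least 10, read counts gave 1 call for MHY at 24 h (2 before), 6 for the difference and 1 between the DMSO times, the ∼60-nt share gave 1 at 48 h, and the <30-nt share gave 12 at 48 h and 4 for the difference. With no filter on low counts there were 147 calls for MHY at 48 h, 29 for the difference and 8 between the DMSO times. Narrower classes (below 20 nt, and 40 to 80 nt) gave 0 calls in the <30-nt share and 3 in the ∼60-nt share at 48 h, and no weights gave 0 in both. At least 30 reads in each library gave 2 for the difference in the <30-nt share. The cause was not tested.

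Leaving out 1 library gave 0 to 3 calls for MHY at 24 h in read counts, 17 (without MHY replicate 24) to 141 (without MHY replicate 25) at 48 h, 0 to 30 for the difference and 0 to 2 between the DMSO times. For the ∼60-nt share it gave 0 to 4, 0 to 36 and 0, and for the <30-nt share 0 to 1, 0 to 10 and 0 to 3, in the order 24 h, 48 h and difference.

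Some fitted changes of members changed sign, none of them called. At a mapping quality of at least 10 these were Hmgb1 in the <30-nt share at 24 h (0.13) and in its difference (-0.85), Hmgb3 in read counts at 48 h (0.30) and Hmga1 in their difference (0.13), and at a barcode confidence of at least 0.9 Hmga1 against all genes (0.556 nt). Without 1 library the range was -1.20 to 0.19 for Hmgn2 in the <30-nt share at 48 h, -0.063 to 0.65 for Hmgb3 between the DMSO times, -0.86 to 0.064 for Hmgb3 with MHY at 48 h, -0.19 to 0.71 for the ∼60-nt share of Hmgn1 at 24 h and -0.81 to 0.095 for its difference, and -0.54 to 0.11 for that of Hmgb2 and -0.034 to 0.38 for that of Hmgn2 at 48 h. Against all genes it was -2.63 to 0.86 nt for Hmga1 and -2.29 to 3.65 nt for Hmgb3. Other member values that missed the threshold kept their sign but moved by over 1.5 times. In read counts the range was -0.36 to -0.13 for Hmgb2 at 24 h, -0.49 to -0.00014 for Hmgb1 at 48 h, 0.032 to 0.30 for Hmgb1 between the DMSO times, and -0.48 to -0.078 for Hmga1 and 0.18 to 0.40 for Hmgb2 in the difference. In the ∼60-nt share it was -0.74 to -0.12 for Hmga1 at 24 h and 0.16 to 0.65 for Hmgn2 in the difference. In the <30-nt share it was -1.27 to -0.24 for Hmgb2 at 24 h, 0.85 to 2.98 for Hmgb3 at 48 h, and 0.79 to 2.57 for Hmgb1 and 1.5 to 3.63 for Hmgb3 in the difference. Hmgn1 against all genes ran from -3.64 to -0.161 nt.

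A fit with the replicate number as a block gave 17 calls in the <30-nt share at 48 h, 6 for its difference, and 4 in the ∼60-nt share at 24 h, and called no member. Deviations of libraries with the same number had correlations of 0.21 at 24 h and 0.14 at 48 h over 325 genes. With 2 pairs a time this does not show that the numbers pair the cultures.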
